A study of Bos taurus with 30 samples.

Results

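HSD17B13, CES1, PLA2G10, ACSM1 and ACSM3 are 5 genes of lipid and ester metabolism, out of 10476 genes measured by RNA-seq in bovine endometrial cells. They were selected on these data, for lower expression in cows which developed purulent vaginal discharge (PVD) or in healthy cows with inflammation, so their levels in those cows are described here with no test. Cells had been brushed from the uterine wall (cytobrush) of Holstein-Friesian dairy cows at 7 days postpartum (DPP), and the cows were diagnosed at 21 DPP. Of 30 sequenced cows, 27 formed the study's set. In 10 cows the uterus was healthy at 21 DPP, 9 cows had cytological endometritis (CYTO, over 18% polymorphonuclear cells, PMN, at 21 DPP with no purulent discharge) and 8 had PVD. Healthy and CYTO cows were divided by PMN at 7 DPP. Low PMN was below 18% (5 healthy and 5 CYTO cows), and high PMN, called physiological inflammation in healthy cows, was 18% or more (5 healthy and 4 CYTO cows). The PVD cows were divided into 4 with PVD alone and 4 in which PVD came with CYTO. All cows came from the herd of a commercial farm, with natural disease and mixed parity, and each library is 1 cow. A brush removes whatever cells lie at the surface, and in such bulk RNA fewer cells of a type and less RNA per cell cannot be told apart.

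The 5 enzymes act at different points of lipid handling. HSD17B13 belongs to the hydroxysteroid 17-beta dehydrogenases and sits on lipid droplets, the cell's store of neutral fat. CES1 is a carboxylesterase that hydrolyses esters, among them cholesteryl esters and many drugs. PLA2G10 is a secreted phospholipase A2, which cuts fatty acids such as arachidonic acid, the precursor of prostaglandins, from membrane phospholipids. ACSM1 and ACSM3 are mitochondrial medium-chain acyl-CoA synthetases, which join fatty acids to coenzyme A before they are used. The uterine glands and the luminal epithelium form the secretory lining of the endometrium, and the prostaglandins made there have a well known role in the bovine cycle. Expression is given in CPM, in which the reads of a gene are scaled to the total of counted reads of its library. The libraries of the 27 cows held 11922966 to 39202083 counted reads, so that 1 read was worth 0.0255 to 0.0839 CPM.

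Cows are named by the identifiers of the deposited columns (s1183 and so on). The same few cows carried most of the signal of all 5 genes. Cows s2006, s2224 and s2570 (healthy, low PMN) and cow s1183 (CYTO, low PMN) were among the 6 highest of the 27 cows for each of the 5 genes. Cow s1340 (healthy, low PMN) and cow s2167 (CYTO, low PMN) were among the 6 highest for 4 genes. In 20 of the 27 cows none of the 5 genes reached 5 CPM, and the remaining cow with a gene above that level was cow s1831 (healthy, high PMN), in which only ACSM3 exceeded it. No cow which developed PVD and no CYTO cow with high PMN had any of the 5 genes above 5 CPM.

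HSD17B13 (ENSBTAG00000031679), the lipid droplet dehydrogenase, was high in healthy low PMN cows and also in some CYTO cows. In healthy low PMN cows it measured 408 CPM in cow s2224, 276 in cow s2570, 110.2 in cow s1340, 27.04 in cow s2006 and 1.05 in cow s1890. In healthy high PMN cows it was 4.61 CPM in cow s1831, 0.623 in cow s2392, 0.538 in cow s1570, 0.487 in cow s2053 and 0.170 in cow s1066. Thus 4 of the 5 low PMN cows lay above every high PMN cow, and cow s1890 lay below the highest of them. Among CYTO cows with low PMN the values were 47.0 CPM in cow s1183, 17.8 in cow s2167, 2.42 in cow s2178, 0.654 in cow s2421 and 0.523 in cow s2382. With high PMN they were 0.925 CPM in cow s2184, 0.380 in cow s2064, 0.282 in cow s1944 and 0.197 in cow s2039. The 2 CYTO groups overlapped, through cows s2382, s2421 and s2184. Over the 8 PVD cows the lowest value was 0.0547 CPM (cow s2520, a single read), the median 0.313 and the highest 1.55 (cow s1194), and the highest came from a cow with PVD alone.

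CES1 (ENSBTAG00000011021), the carboxylesterase, was high in the same cows. In healthy low PMN cows it measured 478 CPM in cow s1340, 199 in cow s2570, 186 in cow s2224, 81.9 in cow s2006 and 1.80 in cow s1890. In healthy high PMN cows it was 2.35 CPM in cow s1831, 0.704 in cow s2053, 0.672 in cow s1570, 0.144 in cow s2392 and 0 in cow s1066, where a count of 0 allows up to 0.128 CPM. Again 4 of 5 low PMN cows stood above the high PMN range and cow s1890 within it. CYTO cows with low PMN held 263 CPM in cow s1183, 8.89 in cow s2167, 0.251 in cow s2178, 0.218 in cow s2382 and 0.0727 in cow s2421. With high PMN the values were 0.737 CPM in cow s2039, 0.198 in cow s2184, 0.190 in cow s2064 and 0 in cow s1944, where a count of 0 allows up to 0.141 CPM. Only cows s1183 and s2167 were therefore above the high PMN range, and the lowest of the low PMN cows sat on 2 reads. In the 8 PVD cows the lowest value was 0.0789 CPM, the median 0.257 and the highest 1.80, the last again in cow s1194.

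PLA2G10 (ENSBTAG00000021522), the secreted phospholipase, measured 90.4 CPM in cow s1340, 56.9 in cow s2224, 42.3 in cow s2570, 13.6 in cow s2006 and 0.263 in cow s1890 among healthy low PMN cows. In healthy high PMN cows it was 2.94 CPM in cow s1831, 0.812 in cow s2053, 0.192 in cow s2392, 0.128 in cow s1066 and 0.0672 in cow s1570. The low PMN cow s1890 fell inside the high PMN range for this gene too. In CYTO low PMN cows only cow s1183 was high, at 29.3 CPM, followed by 1.47 in cow s2167, 0.752 in cow s2178, 0.261 in cow s2382 and 0.145 in cow s2421. In CYTO high PMN cows the values were 0.835 CPM in cow s2039, 0.376 in cow s1944, 0.264 in cow s2184 and 0.190 in cow s2064, so that the 2 CYTO groups overlapped. The 8 PVD cows were closest to each other for this gene, with a lowest value of 0.119 CPM, a median of 0.164 and a highest of 0.299, that is 3 to 11 reads a library.

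ACSM1 (ENSBTAG00000001417), an acyl-CoA synthetase, differed from the other genes in which healthy cows were high. It measured 38.4 CPM in cow s2224, 26.6 in cow s2570 and 22.5 in cow s2006, but 2.94 in cow s1340, which led CES1 and PLA2G10, and 0.638 in cow s1890. The highest healthy high PMN cow was cow s2392 at 4.46 CPM, above cow s1340, with 0.755 in cow s1831, 0.379 in cow s2053, 0.341 in cow s1066 and 0.0672 in cow s1570. Both healthy groups therefore overlapped, at cows s1340, s1890, s1831 and s2392. The CYTO groups did not overlap. CYTO low PMN cows measured 26.8 CPM in cow s1183, 15.4 in cow s2167, 0.784 in cow s2382, 0.669 in cow s2178 and 0.400 in cow s2421. CYTO high PMN cows measured 0.282 CPM in cow s1944, 0.246 in cow s2039, 0.190 in cow s2064 and 0.0661 in cow s2184, which is 1 to 6 reads. The separation of the 3 lower cows from the high PMN group thus rested on 11 to 18 reads. In the PVD cows the lowest value was 0.118 CPM, the median 0.209 and the highest 2.30, in cow s2161.

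ACSM3 (ENSBTAG00000006447), its relative, was the only one of the 5 genes with a median above 1 CPM in all 6 groups. In healthy low PMN cows it measured 347 CPM in cow s2224, 133 in cow s1340, 127 in cow s2570, 14.2 in cow s2006 and 3.94 in cow s1890. In healthy high PMN cows it was 7.63 CPM in cow s1831, 1.75 in cow s1066, 1.41 in cow s2053, 1.14 in cow s1570 and 0.336 in cow s2392. Cow s2392, the highest of its group for ACSM1, was thus the lowest for ACSM3. In CYTO low PMN cows it was 158 CPM in cow s1183, 14.7 in cow s2167, 4.18 in cow s2178, 3.34 in cow s2421 and 2.75 in cow s2382. In CYTO high PMN cows it was 2.01 CPM in cow s2064, 1.47 in cow s2039, 0.661 in cow s2184 and 0.611 in cow s1944, all below the lowest low PMN cow. In PVD alone it measured 3.23 CPM in cow s2683, 3.06 in cow s2622, 2.88 in cow s1194 and 0.219 in cow s2520, and in PVD with CYTO 3.53 in cow s2161, 1.65 in cow s2202, 0.947 in cow s1829 and 0.649 in cow s1239. Thus 4 of the 8 PVD cows lay between 2.88 and 3.53 CPM, within the range of the CYTO low PMN cows, and the other 4 at 0.219 to 1.65 CPM, below it.

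**Figure D1:**
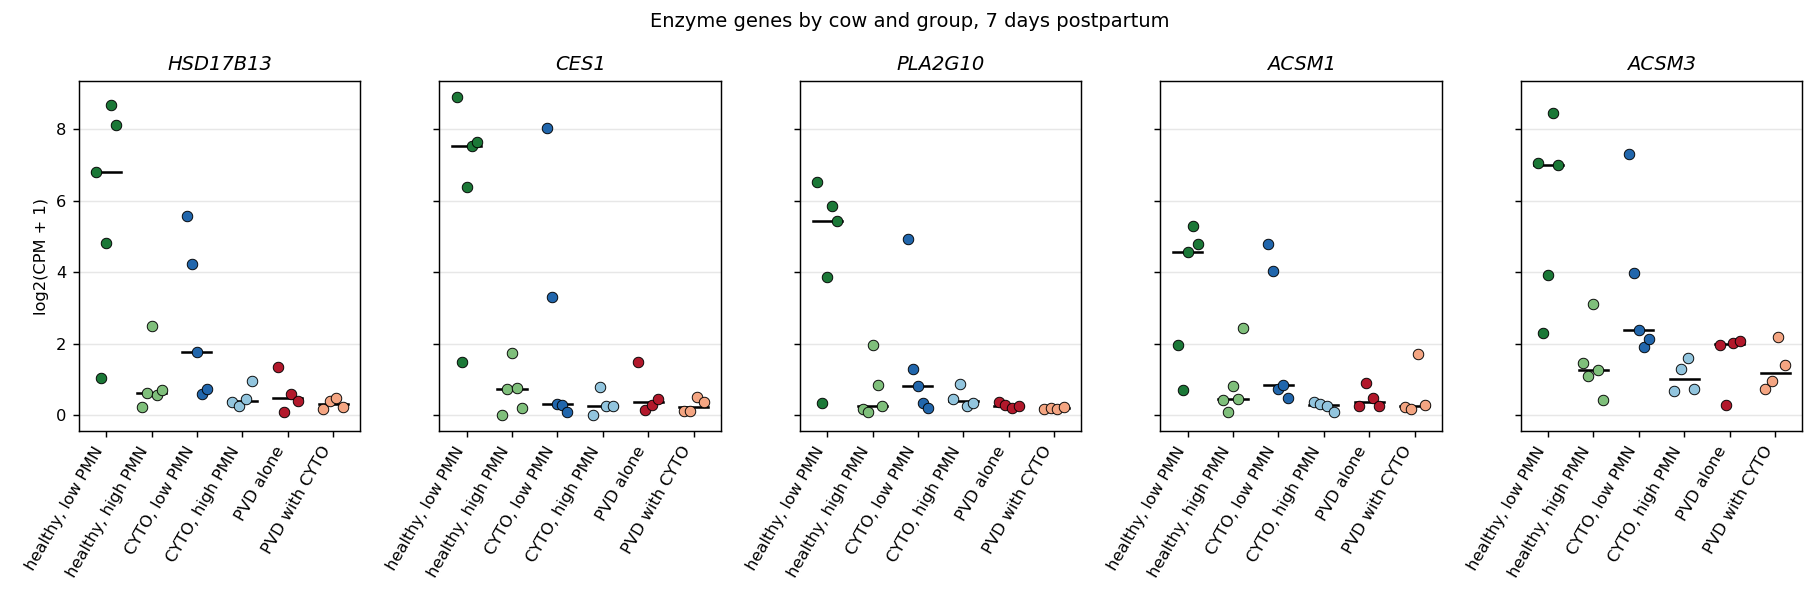
Level of each of the 5 enzyme genes as log2(CPM + 1) on the vertical axis, in the 6 groups on the horizontal axis. Each point is 1 cow and each bar is the group median. Healthy low PMN cows reach 408 CPM for HSD17B13 and 478 CPM for CES1 with cow s1890 low in each panel and cow s1340 low for ACSM1, CYTO low PMN cows spread over the range, and the other groups lie near the bottom.

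By group median the healthy low PMN cows came first for all 5 genes. Their medians were 110.2 CPM for HSD17B13, 186 for CES1, 42.3 for PLA2G10, 22.5 for ACSM1 and 127 for ACSM3. CYTO low PMN cows were second for 4 genes, with medians of 2.42 CPM for HSD17B13, 0.752 for PLA2G10, 0.784 for ACSM1 and 4.18 for ACSM3. For CES1 the second place was held by healthy high PMN cows at 0.672 CPM, and CYTO low PMN cows came after PVD alone (0.301 CPM) at 0.251 CPM. The last place fell to PVD with CYTO for 4 genes, at 0.243 CPM for HSD17B13, 0.185 for CES1, 0.144 for PLA2G10 and 0.2001 for ACSM1, and to CYTO high PMN for ACSM3, at 1.07 CPM. The ranges of every pair of neighbours in these orders overlapped, so that no neighbouring groups were separated.

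The selection used the 2 comparisons in which the genes are described first. Between healthy low PMN and healthy high PMN cows, the mean log2(CPM + 1) differed in the high PMN cows by -4.96 for HSD17B13 (5.89 with low and 0.92 with high PMN), -5.70 for CES1, -3.73 for PLA2G10, -2.62 for ACSM1 and -4.28 for ACSM3. The group medians stood 205-fold apart for HSD17B13, 276-fold for CES1, 221-fold for PLA2G10, 59.4-fold for ACSM1 and 89.9-fold for ACSM3. From healthy (n = 10) to PVD cows (n = 8) the same difference was -2.94 for HSD17B13, -3.10 for CES1, -2.30 for PLA2G10, -1.62 for ACSM1 and -2.16 for ACSM3. Both comparisons share the healthy cows. The healthy median itself lay between the 2 PMN groups, at 2.83 CPM for HSD17B13 and 2.07 CPM for CES1. In limma's test over all genes, in which a call required both an adjusted p under 0.05 and a change of over 1 on the log2 scale, neither comparison called any gene (0% of 10424 and 0% of 10454 genes tested). With an unadjusted p below 0.05 there were 2691 and 2223 genes, edgeR called 0 in each, and DESeq2 called 892 (6.20% of genes lower and 2.32% higher with high PMN) and 712 (3.6% lower and 3.2% higher in PVD).

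The groups without high values were close to one another on the log2(CPM + 1) scale, as described with no test. This scale understates differences between values below 1 CPM, so closeness there is partly a property of the scale. The mean log2(CPM + 1) of PVD cows differed from that of healthy high PMN cows by -0.46 for HSD17B13, -0.25 for CES1, -0.43 for PLA2G10, -0.31 for ACSM1 and -0.02 for ACSM3. Each of these differences was smaller than the pooled SD between cows, which ran from 0.48 for PLA2G10 to 0.83 for ACSM3. From CYTO high PMN to PVD cows the difference was -0.05 for HSD17B13, 0.11 for CES1, -0.24 for PLA2G10, 0.28 for ACSM1 and 0.37 for ACSM3. Of these, only that of PLA2G10 exceeded its pooled SD (0.16), at levels of 3 to 17 reads a library. Between the 2 low PMN groups the spread was much wider. CYTO low PMN cows differed from healthy low PMN cows by -3.301 for HSD17B13 at a pooled SD of 2.69, by -3.98 for CES1 at an SD of 3.16, and by -2.89 for PLA2G10 at an SD of 2.23. For ACSM1 (-1.29 at an SD of 2.04) and ACSM3 (-2.21 at an SD of 2.40) the difference was within 1 pooled SD.

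CYTO cows were not used in choosing the genes, and the comparison of their low and high PMN groups was therefore tested. All 5 genes were lower on average with high PMN, with differences of -2.46 to -1.03 on the log2(CPM + 1) scale, and none passed the test in limma. The largest difference was that of ACSM3, at -2.46 ± 1.03 (SE, 95% interval -4.77 to -0.14), with an adjusted p of 0.106 in limma over 10443 genes (exact two-sided permutation p = 0.0397 over 126 splits of the cows, not adjusted). The other 4 genes did not have at least 1 CPM in 4 of the 9 cows and were outside that fit, so their adjusted p is from the limma fit without this filter. HSD17B13 differed by -2.08 (95% interval -4.40 to 0.25, adjusted p = 0.163, exact p = 0.0952). ACSM1 differed by -1.92 (-4.15 to 0.30, adjusted p = 0.175, exact p = 0.119), CES1 by -2.08 (-5.57 to 1.403, adjusted p = 0.339, exact p = 0.325) and PLA2G10 by -1.03 (-3.23 to 1.17, adjusted p = 0.452, exact p = 0.421). The group medians in CPM stood 1.29-fold apart for CES1, 2.35-fold for PLA2G10, 7.32-fold for HSD17B13, 3.601-fold for ACSM1 and 3.92-fold for ACSM3. On the recovered reads DESeq2 called HSD17B13 (log2 fold change -4.84, adjusted p = 0.000352) and ACSM1 (-5.38, adjusted p = 9.3e-05), and edgeR called ACSM1 (-5.31, adjusted p = 0.0465). Without cow s1183 the differences fell to -0.68 for CES1 and -0.18 for PLA2G10, and that of ACSM3 was -1.51 with an adjusted p of 0.0419 in limma.

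In the same fit 911 of 10443 genes, 8.72%, passed the test, 555 higher and 356 lower with high PMN (5.31% and 3.41%). With CPM rescaled by TMM factors, which moved the median difference of all genes from -0.14 to -0.03, 5.93% of genes were higher and 1.93% lower. On the recovered reads edgeR called 6.65% of genes higher and 1.91% lower, and DESeq2 8.30% and 3.31%. ACSM1 and ACSM3 were the 2 of the 5 genes in which every high PMN cow was below every low PMN cow, as were 16.9% of all 10476 genes, while every high PMN cow was above in 6.97%. The count of calls was 551 without cow s2039 and 31 in a single limma fit over all 6 groups.

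Among PVD cows, no difference between those with CYTO and those without passed the test, and the intervals were wide. The difference of PVD with CYTO from PVD alone was -0.28 for HSD17B13 (95% interval -1.23 to 0.67), -0.32 for CES1 (-1.30 to 0.66), -0.08 for PLA2G10 (-0.92 to 0.75), 0.13 for ACSM1 (-0.94 to 1.19) and -0.27 for ACSM3 (-1.47 to 0.93). The limma adjusted p was 0.944 to 0.952, and the lowest exact permutation p was 0.0857, for PLA2G10, where 70 splits of 4 against 4 cows allow no p below 0.0286. In none of the 5 genes did the PVD groups lie wholly apart, which 0.134% of all genes did with lower and 0.0191% with higher values in PVD with CYTO. Only ACSM3 had at least 1 CPM in 4 of these 8 cows. Over all genes 0 of 10412 (0%) passed the test in limma, with 12 at an unadjusted p below 0.05, and edgeR and DESeq2 also called 0. The median of all genes was itself -0.27 in this comparison and 0.00 after TMM scaling. With TMM scaling the difference was -0.21 for HSD17B13, -0.26 for CES1, -0.04 for PLA2G10, 0.22 for ACSM1 and -0.10 for ACSM3.

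**Figure D2:**
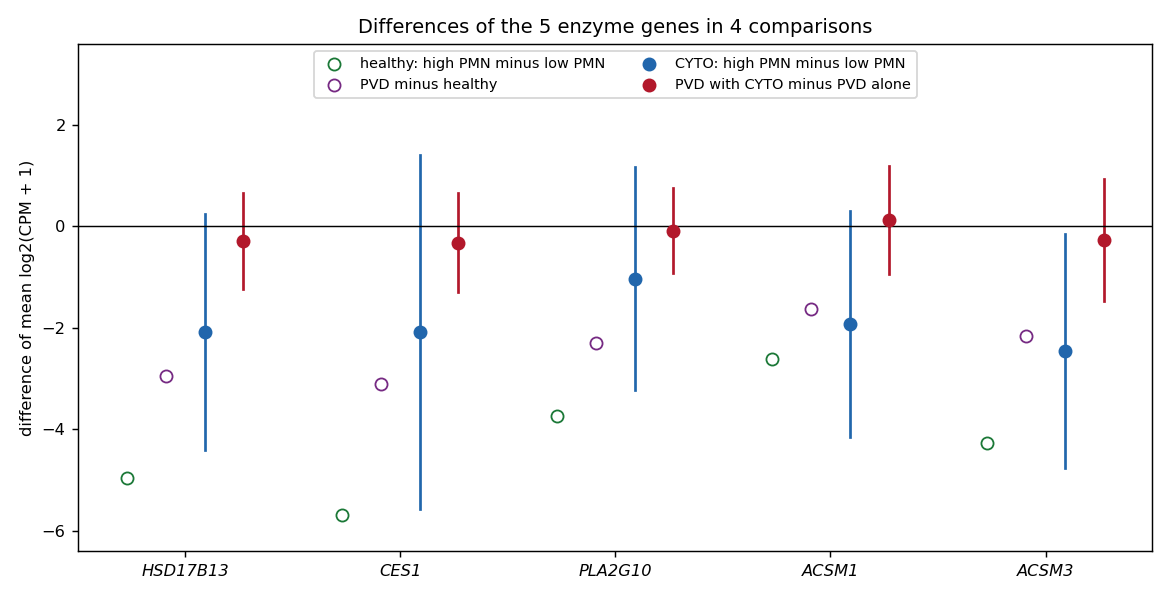
Difference of mean log2(CPM + 1) between groups for each of the 5 genes. Open circles are the 2 comparisons used in choosing the genes, shown with no interval, filled circles with 95% intervals from limma are CYTO cows by PMN and PVD cows by CYTO. The interval of ACSM3 in CYTO cows (-4.77 to -0.14) is the only one that leaves out 0.

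The 5 genes followed one another without being interchangeable. Across the 27 cows Spearman's rho was highest between HSD17B13 and ACSM3 (0.785) and lowest between CES1 and ACSM1 (0.548). The points share the selection of the genes and the makeup of each brush, so these values are descriptive. For CES1 the other genes ranked high among the 10475 remaining genes, with ACSM3 at place 23, HSD17B13 at 27 and PLA2G10 at 35, whereas ACSM1 was at place 496. For HSD17B13 the places ran from 184 (ACSM3) to 1469 (ACSM1), and for PLA2G10 from 137 (CES1) to 988 (ACSM3). For ACSM1 they ran from 774 (ACSM3) to 1525 (CES1), and for ACSM3 from 305 (HSD17B13) to 1885 (PLA2G10). Many genes outside the 5 thus lay nearer to each of these. The gene nearest to HSD17B13 outside the 5 was NAPEPLD (rho 0.891), followed by CCDC39 and AKTIP. CES1 was nearest to CXCL17 (0.925), BPIFB1 (0.899) and TMEM213 (0.876). PLA2G10 was nearest to NGRN (0.855), MYOM3 and NDRG2, ACSM1 to DYNLRB2 (0.887), ST6GAL1 and ANAPC13, and ACSM3 to SYCP3 (0.923), SLC35A3 and SBDS. CXCL17, a mucosal chemokine, had medians of 1030 CPM in healthy low PMN cows, 1.48 in healthy high PMN, 3.43 in CYTO low PMN and 0.815 in CYTO high PMN cows. NGRN, in contrast, followed the ranks of PLA2G10 at medians of 82.8, 65.3, 71.2 and 60.8 CPM in the same groups, a far narrower range.

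Cell type markers moved in the same libraries. FOXA2, MUC16, SERPINA14 and SCGB1A1, which would mark glands and secretory cells most directly, were not found by symbol among the genes measured. The glandular origin of the 5 transcripts was therefore not checked. The 9 secretory and gland markers that were measured (of 14 listed, among them AGR2, SPDEF, PIGR, SLPI and CXCL17, which is also the gene nearest to CES1) summed to 296 to 78746 CPM in healthy low PMN cows, with cow s1890 lowest. The sums were 66.8 to 2547 CPM in healthy high PMN, 221 to 45722 in CYTO low PMN (cow s1183 highest), 507 to 2202.3 in CYTO high PMN, 101 to 2100 in PVD alone and 57.2 to 1604 in PVD with CYTO. Of these 9 markers 1 was at 0 in cow s1066, and none was at 0 in any other cow. Epithelium markers (12 of 13, including EPCAM, CDH1 and keratins) moved less, from a median sum of 3933 CPM in healthy low PMN to 904 in healthy high PMN, 1195 in CYTO low PMN and 995 in CYTO high PMN cows. Ciliated cell markers (5 of 11) had median sums of 126, 12.7, 29.6 and 9.97 CPM in the same order. They include CCDC39, which is also among the genes nearest to HSD17B13.

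Macrophage and neutrophil markers were higher with high PMN in both healthy and CYTO cows, by group median, and stroma markers in healthy cows. The 8 stroma markers, which include collagens and VIM, summed to a median of 758 CPM in healthy low PMN cows against 22987 in healthy high PMN cows, with cow s1890 at 20474. In CYTO cows the stroma medians were 27642 CPM with low and 19843 CPM with high PMN, the opposite order. Macrophage and monocyte markers (9 of 10) had medians of 433 and 3532 CPM in these groups and 2354 and 3213 in CYTO low and high PMN cows. Neutrophil markers (9 of 11) had medians of 253 and 888 CPM in healthy and 600 and 4402 CPM in CYTO cows. In CYTO cows 8 of the 9 neutrophil markers were higher with high PMN in limma. Dividing these cows by PMN makes such a rise likely, without fixing it in advance. Of the 5 ciliated markers 1 (CCDC190) was lower. None of the secretory, epithelium, macrophage or stroma markers passed, apart from 1 macrophage marker with TMM scaling. Over all genes 5.31% were higher and 3.41% lower in this fit. The share of these cell types in the differences of the 5 genes was not tested. Cows s2184 and s2006 are set side by side by no rule fixed beforehand, after their values were seen. In cow s2184 (CYTO, high PMN) the epithelium markers summed to 2536 CPM, close to the 2966 of cow s2006. That sum was the highest among CYTO high PMN cows, whose median was 995 CPM. None of the 5 genes exceeded 0.925 CPM in cow s2184, and all lay between 13.6 and 81.9 CPM in cow s2006. The secretory and gland markers of these cows were further apart, at 829.5 CPM in cow s2184 and 8730.5 CPM in cow s2006, as were the ciliated cell markers, at 10.2 and 126 CPM.

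**Figure D3:**
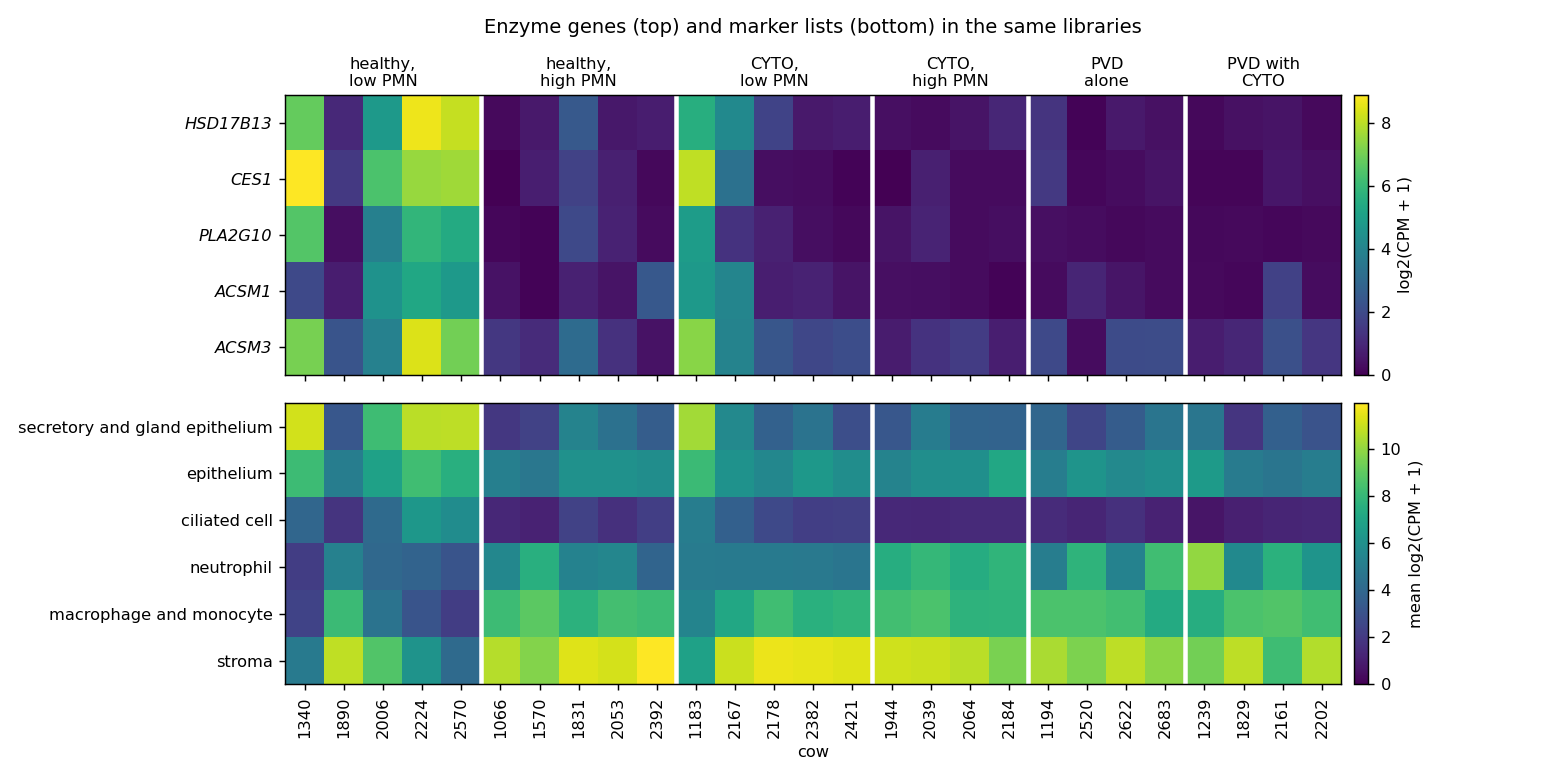
Heat maps of the 27 cows, in columns by group. The upper panel gives log2(CPM + 1) of the 5 enzyme genes and the lower panel the mean log2(CPM + 1) of 6 marker lists, each with its own colour scale. Cows s1340, s2006, s2224, s2570 and s1183 are bright for secretory markers and for most of the 5 genes. Of them, s1340 is low for ACSM1, at 2.94 CPM. Those cows are darker than all others for macrophage markers. All of them but s2006 (a stroma sum of 9593 CPM) are also darker than the other cows for stroma markers. Cow s1890 is dark for the genes.

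Relatives of the 5 genes were listed by family or function, with earlier results of these data known. Those named are mainly the relatives with the largest differences in CYTO cows. The 5 genes were chosen for their levels, so no comparison of their changes with those of the relatives is drawn. HSD17B11, a lipid droplet dehydrogenase that lies next to HSD17B13 in the RefSeq annotation, was present in every cow. Its median was 388 CPM in healthy low PMN cows (104 to 614), 71.3 in healthy high PMN (45.7 to 150.5), 145 in CYTO low PMN (115 to 305) and 83.4 in CYTO high PMN (59.7 to 115.5). It was 80.8 CPM in PVD alone and 62.1 in PVD with CYTO. Healthy low PMN and CYTO low PMN cows thus came first and second by median. In CYTO cows its difference was -0.92 ± 0.31 (SE, limma adjusted p = 0.0570), and 0 of the 6 other HSD17B genes measured passed the test in either direction, with a median of -0.50 beside -0.14 over all genes. All 6 differences were negative, and 5 of the 6 with TMM scaling. HSD17B8 (-0.69 ± 0.14) and HSD17B7 (-0.55 ± 0.27), the latter an enzyme of cholesterol synthesis, had the next largest differences.

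Of the 8 other ester hydrolases none passed in CYTO cows, and their median difference was -0.37. The largest differences were those of CES2, a second carboxylesterase, at -0.82 ± 0.51 (adjusted p = 0.252), ESD at -0.75 ± 0.11 (adjusted p = 0.00357, under the log2 change of 1) and ABHD12 at 0.55 ± 0.26. In healthy cows the median of CES2 was 12.7 CPM (8.32 to 39.96) with low and 31.7 CPM (9.07 to 87.97) with high PMN, at an adjusted p of 0.331 in limma. Of the 5 other phospholipases A2, 0 passed, with a median of -0.52. PLA2G12A, a secreted form, had the largest difference at -0.90 ± 0.21 (adjusted p = 0.0171, again under the log2 change of 1), before PLA2G7 at -0.65 ± 0.31 and the lysosomal PLA2G15 at 0.62 ± 0.41. Over all genes 8.72% passed in the same comparison.

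Among 11 other acyl-CoA synthetases in CYTO cows, 1 rose and 1 fell with high PMN, near the shares of all genes (5.31% higher and 3.41% lower). ACSL4, which activates arachidonic acid, rose from 84.4 ± 15.1 CPM (SD, n = 5) to 271 ± 114 (n = 4), a log2 difference of 1.60 ± 0.25 (limma adjusted p = 0.00486), and it passed in all 9 fits that left out 1 cow but not in the single fit over 6 groups (adjusted p = 0.0696). ACSS3, a short-chain acyl-CoA synthetase, fell from 127 ± 83.6 to 46.1 ± 7.94 CPM, a difference of -1.28 ± 0.34 (adjusted p = 0.0269), but it passed in 3 of those 9 fits and not with TMM scaling, in edgeR or in the fit over 6 groups. SLC27A2 differed by -1.28 ± 0.62 (adjusted p = 0.151). ACSM2A, ACSM2B, ACSM4 and ACSM5, the remaining members of the medium-chain family, were not found by symbol among the genes measured.

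Of 12 lipid droplet proteins measured, 3 rose with high PMN in CYTO cows and none fell, where 5.31% of all genes were higher and 3.41% lower. The list's median difference was 0.42, and its lowest values were those of LDAH (-0.65) and FITM2 (-0.60), named here after their values were seen. G0S2, an inhibitor of the fat-cleaving lipase PNPLA2, measured 6.29 to 14.6 CPM in low PMN and 121 to 460 in high PMN cows (log2 difference 4.71 ± 0.40, adjusted p = 0.000228). DGAT2, which makes triglyceride, rose from 4.44 ± 1.59 CPM (SD, n = 5) to 41.2 ± 19.0 (n = 4), a difference of 2.83 ± 0.41 (adjusted p = 0.00328). PLIN2, the coat protein of lipid droplets, measured 207 to 429 CPM with low and 810 to 1149 with high PMN (1.81 ± 0.21, adjusted p = 0.00123). All 3 genes passed in each of the 9 fits that left out 1 cow and did not pass in the single fit over 6 groups, where their adjusted p was 0.0618 to 0.179. Neutrophil markers rose in the same libraries, and their part in these increases was not tested.

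Of 22 mitochondrial fatty acid oxidation genes measured, 1 fell in CYTO cows, near the 3.41% of all genes that were lower. This was ACADSB, a short/branched-chain acyl-CoA dehydrogenase, which went from 61.8 ± 9.77 CPM (SD, n = 5) to 29.4 ± 5.35 (n = 4), a difference of -1.05 ± 0.16 (adjusted p = 0.00416), which was -0.93 with TMM scaling and then missed the log2 change of 1. ACADSB did not pass in edgeR or in the fit over 6 groups (adjusted p = 0.169) either, and passed in 7 of the 9 fits that left out 1 cow, not without cow s1183 or cow s2184. ECI1 differed by 0.98 ± 0.19 (adjusted p = 0.00992) and by 1.09 with TMM scaling, past the threshold, and CPT1B by -0.69 ± 0.38. The list's median was -0.10, beside -0.14 for all genes, and turned to 0.02, beside -0.03, with TMM scaling.

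**Figure D4:**
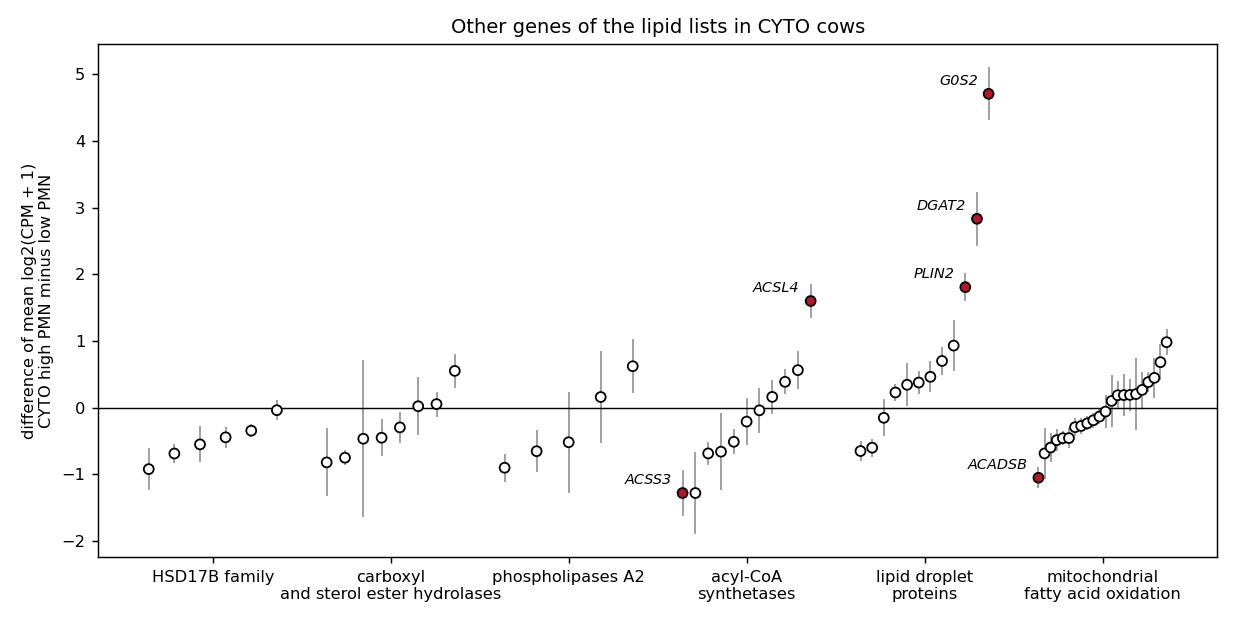
Log2(CPM + 1) difference, CYTO high PMN minus CYTO low PMN, for every other measured gene of the 6 lipid lists, with SE bars. Red points passed limma's adjusted p of 0.05 and a log2 change of 1. ACSL4, G0S2, DGAT2 and PLIN2 lie above and ACSS3 and ACADSB below, and most of the rest lie within 1 of 0.

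In healthy cows none of the genes of the 6 lists passed in limma between low and high PMN, and without cow s1890 the count over all genes went from 0 to 2156 of 10436 (14.5% higher and 6.19% lower with high PMN). HSD17B7 (-1.41) and HSD17B11 (-2.34), PON2 (-1.38) and PON3 (-3.06), PLA2G12A (-1.27), and ACSL5 (-1.63), ACSS2 (-2.69) and ACSS3 (-1.85) were then lower (genes named after their values were seen, like those that follow), at limma adjusted p values of 0.000255 to 0.0384. In the same fit ABHD12 (1.35), LIPA (2.98), PLA2G15 (3.09), PLA2G4F (2.84), PLIN2 (2.43), MGLL (2.27) and ECI2 (2.36) were higher, at 0.00248 to 0.0370. With cow s1890 included, HSD17B11 differed by -1.96 (adjusted p = 0.111) and PLIN2 by 1.89 (adjusted p = 0.181). Between healthy and PVD cows and between the 2 PVD groups, 0 genes of the 6 lists passed in limma.

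A further 3 cows were sequenced but lay outside the study's set. The paper left out 3 samples because the vaginal mucus score of the cows made clinical metritis possible. The 3 cows outside the set entered none of the values above, except that TMM factors were computed over all 30 libraries. Cow s1378 (labelled subclinical) had 0.177 to 1.24 CPM and cow s2672 (labelled clinical) 0 to 1.83 CPM over the 5 genes. Cow s2188 (labelled clinical) was higher, at 9.44 CPM for CES1, 4.23 for HSD17B13, 4.10 for ACSM3, 1.17 for PLA2G10 and 0.617 for ACSM1, above the highest PVD cow for 4 of the 5 genes. Adding the 2 labelled clinical cows moved the difference between healthy and PVD cows to -2.78 for HSD17B13 and -2.81 for CES1.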

How the data were processed

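Endometrial cytobrush RNA of 30 cows at 7 DPP was sequenced from stranded mRNA libraries in 5 pools. Pool membership was not given in the sources used here. The authors trimmed reads, aligned them with STAR to the bovine build UMD3.1, counted unique reads per protein coding gene with featureCounts and removed weakly expressed genes, and the deposited values are CPM per gene. Their columns of log fold changes, likelihood ratios and p-values were not used. A whole number of reads was recovered for 314280 of 314280 values (100%, within 0.01 of a read), and 17 of 30 libraries held at least 100 low values on which the size of 1 read could be read.

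The 5 genes, the gene lists and the tests were chosen with earlier results of these data known. Groups follow the labels, and the PMN and PVD subgroups follow the study's classification of animals, matched by cow number. The 3 cows outside its set entered no group. Group differences were tested with limma (version 3.58.1, trended empirical Bayes, R 4.3.3) on log2(CPM + 1) for genes with at least 1 CPM in 5 libraries, or 4 where the smaller group held 4, with Benjamini-Hochberg adjustment over all genes tested. Fold changes on this scale understate the change of low genes. Members were also tested by exact permutation of cows. Alternatives were a pseudocount of 0.1, no filter, TMM scaling, edgeR (4.0.16) and DESeq2 (1.42.0) on the recovered reads, a single fit over 6 groups, and leaving out each cow. Adding the 2 clinical cows was chosen after seeing the data. The code was tested on simulated data in which every gene had the same spread between cows. The limit on false calls in that test was applied to limma and edgeR but not to DESeq2. Most genes other than the 5 were named by fixed rules. These took up to 3 relatives per list with the largest difference in CYTO cows. They also took the 3 genes of highest Spearman's rho for each of the 5. Marker genes came from fixed lists. Others, such as LDAH, FITM2 and relatives that passed in healthy cows without cow s1890, were named after their values were seen. Limits for a count of 0 use 3 reads and cover counting error only. Gene order came from RefSeq ARS-UCD2.0 by symbol, which matched 4 of the 5 genes, and no coordinates or sequences were used.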

Additional observations from a re-analysis of the deposited data

Results flagged for a closer look

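In 4 of 30 combinations of gene and group, 1 cow stood apart from the rest of its group by Dixon's criterion on log2(CPM + 1), where chance alone gives about 1 in 20. HSD17B13 was 4.61 CPM in cow s1831 among healthy high PMN cows, with a gap of 0.791 of the group's range. PLA2G10 was 29.3 CPM in cow s1183 among CYTO low PMN cows (0.766 of the range). ACSM1 was 2.30 CPM in cow s2161 among cows with PVD and CYTO (0.914). ACSM3 was lowest, at 0.219 CPM, in cow s2520 among cows with PVD alone (0.932).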

How the results depend on the processing

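No paired analysis was possible because each cow gave 1 library and belonged to 1 group. Between CYTO groups the count of genes called was 911, 551 (without cow s2039) to about 1.2e3 (without cow s2064) when 1 cow was left out, and 31 in the fit over 6 groups. HSD17B13 (-4.84, adjusted p = 0.000352) and ACSM1 (-5.38, adjusted p = 9.3e-05) passed with DESeq2, and ACSM1 with edgeR (-5.31, adjusted p = 0.0465). ACSM3 (-2.46) had an exact permutation p of 0.0397, which was not adjusted, beside an adjusted p of 0.106 in limma. It passed in limma without cow s1183 (-1.51, range over cows left out -2.86 to -1.51). DESeq2 gave no adjusted p there for CES1, PLA2G10 and ACSM3. In PVD cows the difference of ACSM1 reversed to -0.25 without cow s2161, with a range of -0.25 to 0.27 over cows left out. Between healthy groups 892 genes were called with DESeq2 and 0 to 2156 with 1 cow left out (2156 without cow s1890), and between healthy and PVD cows 712 with DESeq2 and 0 to 4 with 1 cow left out. The cause of these changes was not tested. In most groups 4 of the 5 genes rested on few reads, so levels there are known to within counting error of a few reads, and groups of 4 or 5 cows leave intervals several log2 units wide.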
